A study of Mus musculus with 16 samples.

Results

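The dual-specificity MAP kinase phosphatases are enzymes that switch off MAP kinases, and 9 of their genes were followed here: Dusp1, Dusp2, Dusp3, Dusp4, Dusp5, Dusp6, Dusp7, Dusp10 and Dusp16. They were taken from the deposited gene table by symbol, 9 genes of the 21965 it lists. All 9 were measured, since none had fewer than 10 counts in any of the 16 libraries, and all 9 were among the 11319 genes tested. RNA was sequenced from RAW264.7, a mouse macrophage line derived from a leukemia, in 4 groups of 4 libraries. The control group received culture medium alone as vehicle. The oxLDL group received oxidised low-density lipoprotein, the modified lipoprotein that macrophages take up in atherosclerosis, at 50 µg/ml. The tirzepatide group received a peptide agonist of the GIP and GLP-1 receptors, at 100 nmol/ml as the labels write it, where nmol/l may be meant. In the last group both agents were given, and it is called the combination below. All groups were 1 cell line and share its background. The length of exposure is not given in the sources used here, and nothing says that the numbered libraries were separate cultures, so p-values measure the spread between these samples, which may be technical.

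MAP kinases become active when a threonine and a tyrosine in their activation loop are phosphorylated, and these phosphatases remove both phosphates. The family is usually ordered by where its members sit and which kinase they prefer. Dusp1, Dusp2, Dusp4 and Dusp5 are nuclear and are induced by the signals they later restrain, with Dusp5 selective for ERK. Dusp6 and Dusp7 are cytoplasmic and act mainly on ERK, while Dusp10 and Dusp16 act mainly on JNK and p38. Dusp3, also called VHR, is a small enzyme without the domain by which the others dock on MAP kinases. In macrophages Dusp1 is best known for restraining p38 and cytokine output after Toll-like receptor signals.

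The promoters of Dusp5 and Dusp6 are shown because these were the members that changed with oxLDL, and that of Dusp1 because it holds the most cyclic AMP response element letters. Each window is the 250 bases before the RefSeq transcription start in the GRCm38.p6 build, an earlier build than that of the gene table, written in the direction of the gene. Of the 9 members 8 had a window, and Dusp4 had none. Both strands were searched for TGACGTCA (the cyclic AMP response element), its 5-letter part TGACG, the AP-1 site TGACTCA and the serum response element, and matches are in capitals. The windows lie at chr19:53528895-53529144 on the plus strand (Dusp5), chr10:99262981-99263230 on the plus strand (Dusp6) and chr17:26508473-26508722 on the minus strand (Dusp1).
Dusp5: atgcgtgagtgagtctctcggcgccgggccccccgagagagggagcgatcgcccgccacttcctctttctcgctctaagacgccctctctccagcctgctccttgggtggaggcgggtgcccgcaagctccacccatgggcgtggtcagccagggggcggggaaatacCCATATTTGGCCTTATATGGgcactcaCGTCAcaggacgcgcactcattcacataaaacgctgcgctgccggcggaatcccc
Dusp6: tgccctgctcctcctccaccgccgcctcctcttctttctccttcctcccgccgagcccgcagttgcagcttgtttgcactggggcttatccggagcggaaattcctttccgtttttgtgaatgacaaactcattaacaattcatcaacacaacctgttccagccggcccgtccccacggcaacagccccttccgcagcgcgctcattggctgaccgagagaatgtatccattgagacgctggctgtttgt
Dusp1: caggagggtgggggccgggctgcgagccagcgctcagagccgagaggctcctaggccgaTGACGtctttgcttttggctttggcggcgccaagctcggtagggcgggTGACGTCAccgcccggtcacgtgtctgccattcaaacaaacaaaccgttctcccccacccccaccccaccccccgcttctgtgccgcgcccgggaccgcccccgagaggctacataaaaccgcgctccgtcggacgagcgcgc
The Dusp5 window held 2 adjoining serum response elements, which began 82 and 72 bases before the start, and a TGACG on the other strand at 55. Such an element was found in 1.47% of the 32851 windows of this length, and in 1 of the 8 members. The Dusp1 window held TGACGTCA at 143 bases before the start, as 1.55% of all windows did. TGACG, which lies in TGACGTCA once on each strand, was found 3 times in Dusp1, at 191, 143 and 140 bases, and once in Dusp16, at 70. It occurred in 3 of the 8 members and in 17.8% of all windows. TGACTCA was found in 0 of the 8 and in 4.46% of all windows. The Dusp6 window held none of the searched letters. A match is a description of the letters only.

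Library totals ran from 15877278 to 17336019 estimated counts. The 9 listed macrophage markers were all above 0 in every library, with summed levels between 17120 and 18410 TPM in the controls and between 20400 and 23720 TPM in the treated libraries. TPM is a transcript level that takes account of gene length and of depth. Every treated library was above every control in this sum, and its part in the results below was not tested. Islet, hepatocyte, lymphocyte, fibroblast and erythroid markers summed to at most 2.09 TPM in any list and library. Controls 1 and 2 stood apart by 17 pancreatic acinar transcripts, which summed to 280.9 and 152 TPM there and to between 6.62 and 53.2 TPM in the other 14 libraries. Combination library 2 stood apart in its response. Over the 282 genes that were higher with oxLDL, its median log2 difference from the control mean was 0.12, against 0.24 to 0.25 in the other 3 combination libraries and 0.11 to 0.13 in the tirzepatide libraries. Over the 232 genes that were lower with oxLDL it was -0.18, against -0.36 to -0.32 in the other 3 and -0.16 to -0.12 in the tirzepatide libraries. These genes were called in the comparison of oxLDL with control. Its fit took the filter, scaling and spread from all 16 libraries, so combination library 2 had a part in the choice. Without that library 583 genes were called there in place of 514. Dusp5 was among the 282 genes and Dusp6 among the 232. Results that rest on controls 1 and 2 or on combination library 2 are given below with and without them, and why they stand apart was not tested.

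Dusp3, Dusp4 and Dusp6 were the abundant members, and Dusp10 was barely expressed. On the TPM scale, per length, the control means were 68.1 ± 11.8 for Dusp4, 65.1 ± 3.79 for Dusp3 and 60.6 ± 1.104 for Dusp6 (SD, n = 4). Neighbours in this order overlapped in their ranges. A gap followed, with no overlap, to Dusp7 at 18.4 ± 3.78, Dusp1 at 15.7 ± 0.690, Dusp16 at 14.8 ± 2.42 and Dusp2 at 11.4 ± 0.271 TPM, each of which overlapped with the next. Dusp5 came below all of these in the controls, at 9.35 ± 0.941 TPM, without overlap with Dusp2. Dusp10 was last at 1.496 ± 0.366 TPM, with 17 to 44 counts over all 16 libraries.

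With oxLDL Dusp5 stood at position 4 of the 9 in place of position 8, at 18.8 ± 1.76 TPM. There it overlapped with Dusp1 and Dusp7 and lay above every Dusp16 and Dusp2 value. Dusp6 no longer overlapped with Dusp3. In the tirzepatide libraries Dusp5 was again below Dusp2 without overlap, at 9.30 ± 0.976 TPM. The 9 genes together summed to 265.1 ± 20.3 TPM in the controls, 282 ± 18.2 with oxLDL, 276 ± 7.80 with tirzepatide and 269 ± 19.4 with the combination. These sums differed by less than the spread within the controls. Dusp5 was 3.53% ± 0.346 of the summed TPM in the controls and 6.65% ± 0.293 with oxLDL, and Dusp6 was 21.7% to 24.8% and 16.7% to 19.4%, without overlap. No test was made of these shares.

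**Figure D1:**
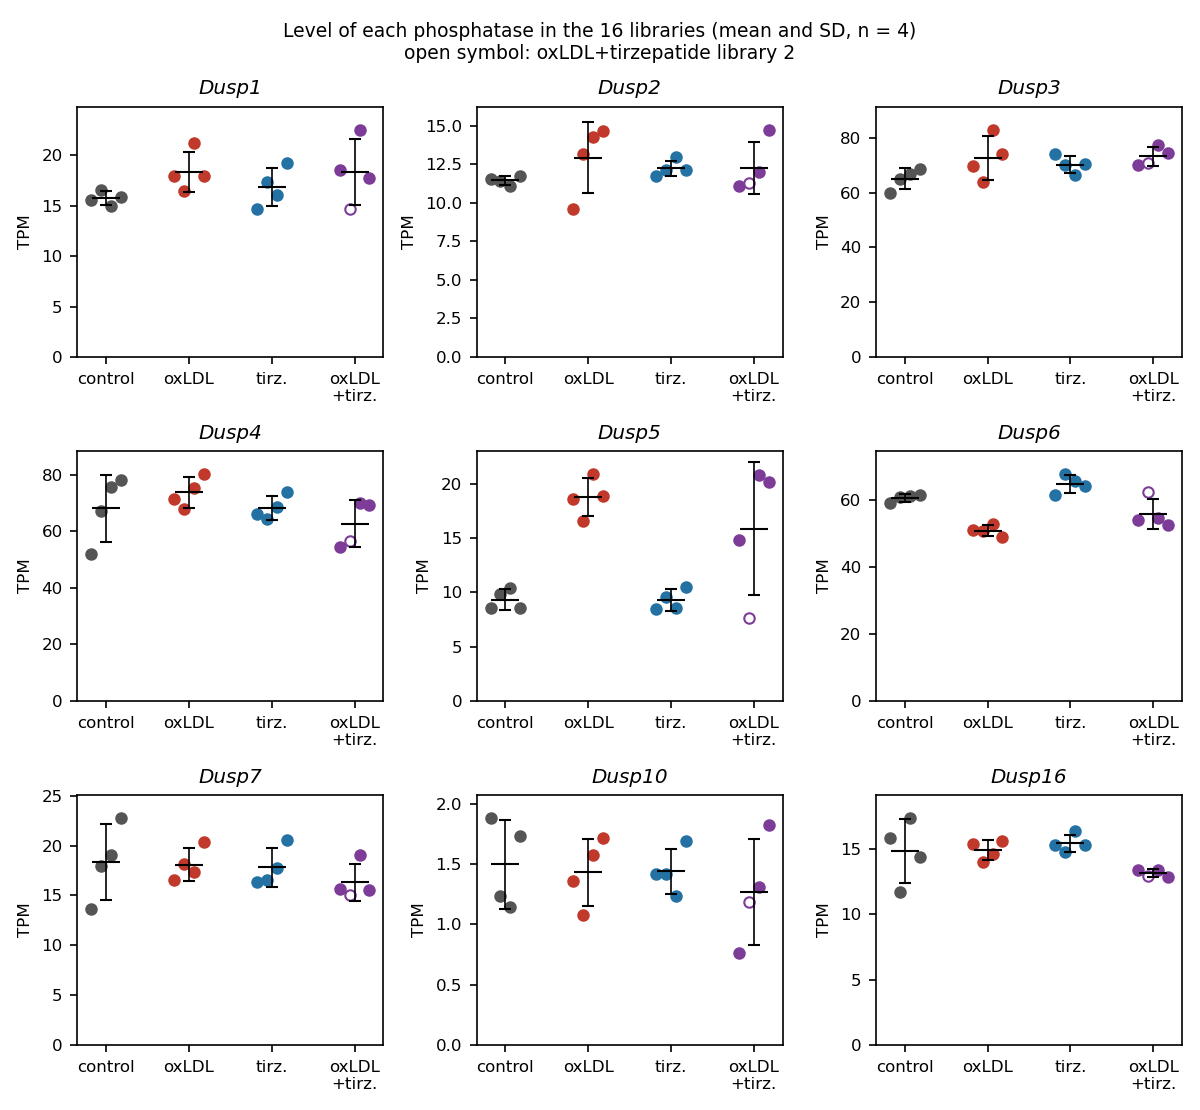
Level of each of the 9 phosphatase genes in TPM (vertical axis, from 0, a scale of its own per gene) in each library, by group (horizontal axis). Bars give the mean and SD of 4 libraries, and combination library 2 is an open symbol. Dusp5 lay between 16.6 and 20.9 TPM in the oxLDL libraries and between 8.55 and 10.4 TPM in the controls.

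**Figure D2:**
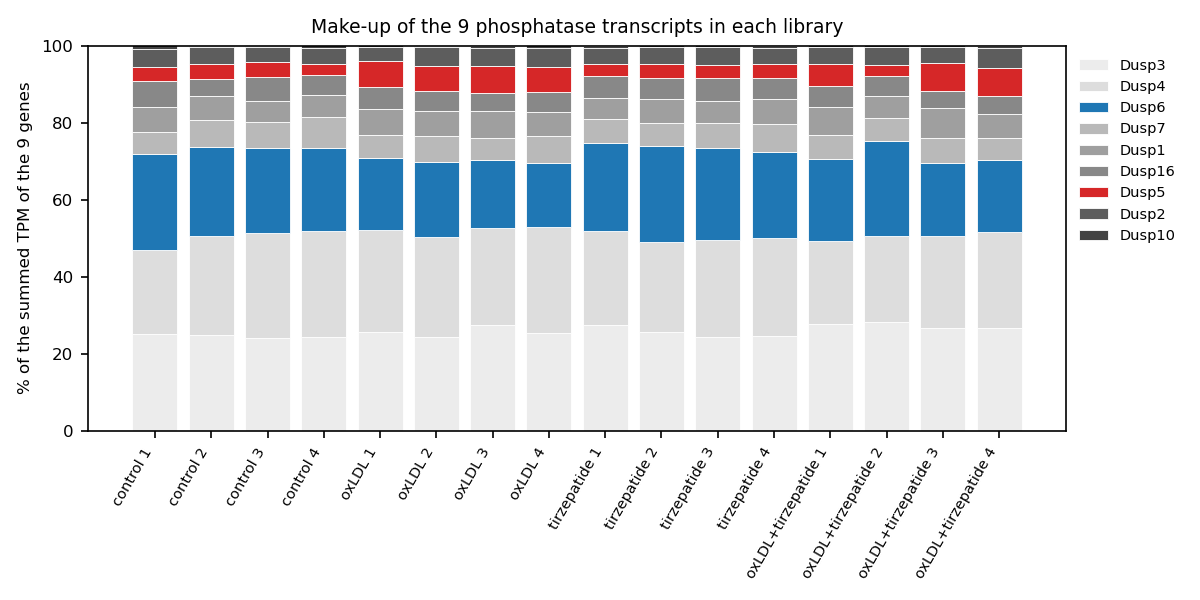
Share of each gene in the summed TPM of the 9 genes (vertical axis, percent) in each of the 16 libraries (horizontal axis). Dusp5 is red and Dusp6 blue, and Dusp5 took between 3.02% and 7.24% of the sum.

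The comparison of oxLDL with control asks how the lipoprotein alone moved these genes. Dusp5 rose and Dusp6 fell, and the other 7 members did not pass the test. So 1 member rose and 1 fell of 9, where 514 of all 11319 genes tested, 4.54%, passed at an adjusted p under 0.05. The median log2 change of the 9 members was 0.11, and that of all genes tested was -0.002. In bulk RNA, fewer cells that express a gene and less RNA per cell cannot be told apart.

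Dusp5, the nuclear phosphatase of ERK, is listed under ENSMUSG00000034765. It was at 8.55, 9.82, 10.44 and 8.57 TPM in controls 1 to 4 and at 18.60, 16.63, 20.94 and 18.91 TPM in oxLDL libraries 1 to 4. Each of the 4 oxLDL libraries was above each control. The fitted log2 change was 1.00 ± 0.18 (SE), with a 95% interval of 0.63 to 1.36, which is a 2.00-fold level (edgeR adjusted p = 0.000932). By p it was gene 88 of the 11319. The rise passed the test in all 24 alternative analyses, with log2 changes from 0.94 to 1.05. Without controls 1 and 2 it was 1.00 (edgeR adjusted p = 0.0122).

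Dusp6, the cytoplasmic phosphatase of ERK, is listed under ENSMUSG00000019960. It was at 59.00, 60.99, 61.17 and 61.38 TPM in the controls and at 51.00, 50.83, 52.86 and 48.96 TPM in the oxLDL libraries. All 4 oxLDL libraries were below all 4 controls. The fitted log2 change was -0.26 ± 0.05 (SE), with a 95% interval of -0.37 to -0.15 (edgeR adjusted p = 0.00391), a 0.834-fold level. This fall was small beside the rise of Dusp5, yet it passed in all 24 alternatives, with log2 changes from -0.28 to -0.24. Without controls 1 and 2 the adjusted p from edgeR was 0.0445. The ratio of Dusp5 to Dusp6 on the TPM scale was 0.140 to 0.171 in the controls and 0.327 to 0.396 with oxLDL.

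**Figure D3:**
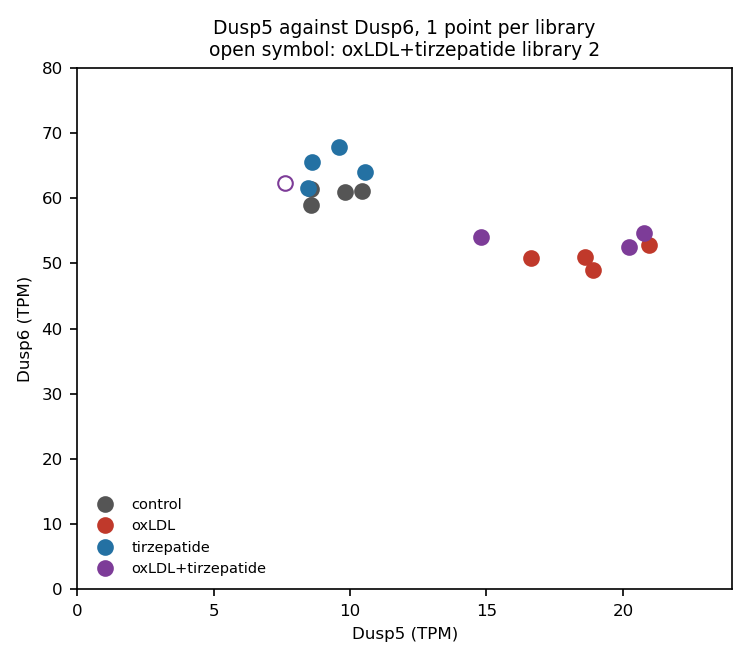
Dusp6 (vertical axis, TPM) against Dusp5 (horizontal axis, TPM), 1 point per library, coloured by group, both axes from 0. The oxLDL libraries and 3 combination libraries lie at the lower right, and combination library 2, the open symbol at 7.63 and 62.3 TPM, lies with the control and tirzepatide libraries.

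Among the other nuclear members, Dusp1 was at 18.4 ± 1.98 TPM with oxLDL against 15.7 ± 0.690 in the controls, a log2 change of 0.18 with a 95% interval of -0.03 to 0.39 (edgeR adjusted p = 0.374). Its groups overlapped in TPM but not in CPM, the counts scaled to library size by TMM as in the test. Dusp2 had an interval of -0.07 to 0.41 and Dusp4 one of -0.05 to 0.28, so a rise like that of Dusp5 lies outside all 3 intervals. Dusp7, the other cytoplasmic phosphatase of ERK, had a log2 change of -0.04 with an interval of -0.24 to 0.16, while its relative Dusp6 fell. Whether the 2 changes differ was not tested.

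Of the members that act on JNK and p38, Dusp16 had a log2 change of 0.05 with oxLDL and an interval of -0.09 to 0.19. Dusp10 had one of -0.07 with an interval of -0.63 to 0.48, so a change as small as that of Dusp6 was not detectable at its depth. Dusp3 was at 72.7 ± 8.04 TPM with oxLDL against 65.1 ± 3.79 in the controls, with a log2 change of 0.11 ± 0.04 (SE; edgeR adjusted p = 0.151). These groups overlapped in TPM but not in CPM, where the controls were at 125.1 to 134.7 and the oxLDL libraries at 137.0 to 140.6. Its unadjusted edgeR p was 0.0155, 1 of 3 members with an unadjusted p under 0.05. Of the 11319 genes tested, 2042 were under 0.05 as well.

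**Figure D4:**
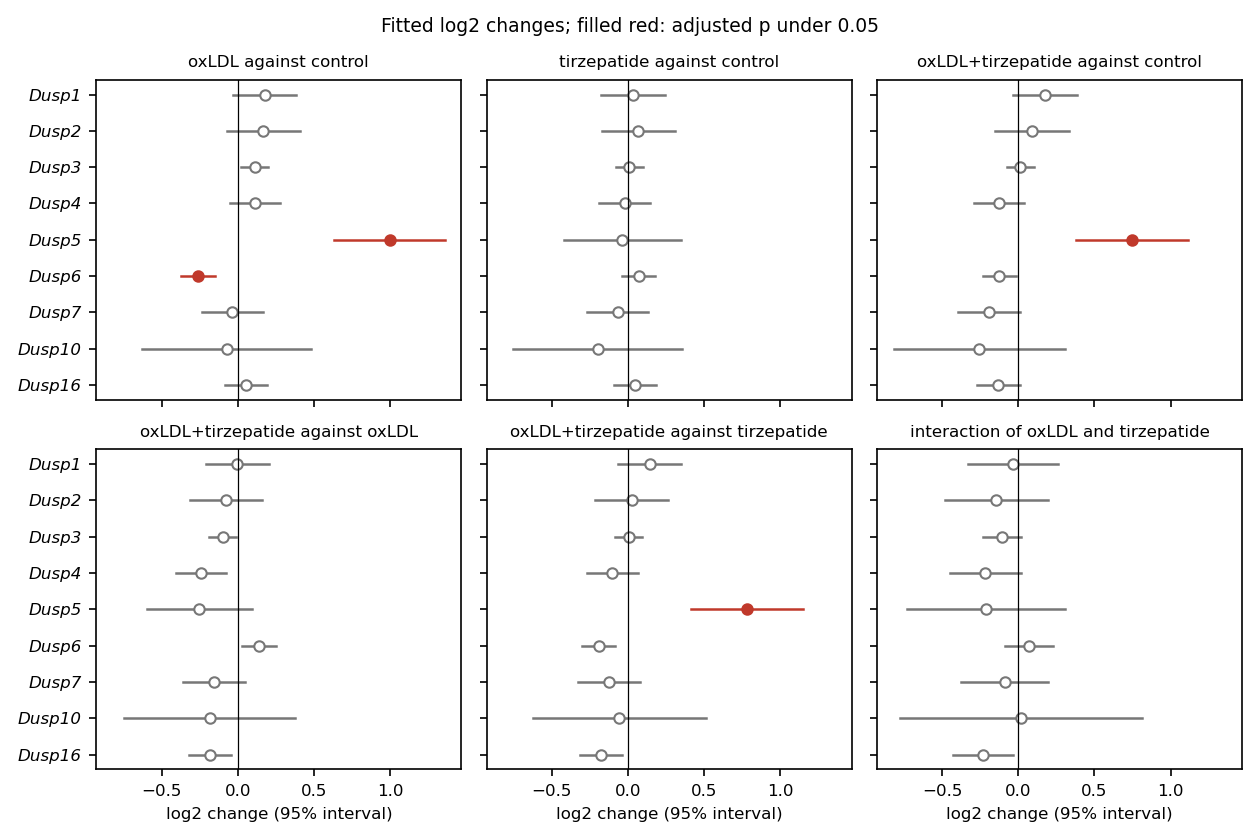
Fitted log2 change of each of the 9 genes with its 95% interval (horizontal axis) in the 5 pairwise comparisons and the interaction, 1 panel each. Filled red symbols had an adjusted p under 0.05: Dusp5 in 3 panels, with log2 changes of 1.00, 0.75 and 0.78, and Dusp6 in the oxLDL panel at -0.26.

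The comparison of tirzepatide with control asks what the peptide did without oxLDL. None of the 9 members passed: edgeR called 0, DESeq2 and limma called 0, and 0 had an unadjusted p under 0.05. Of all genes tested, 462 passed, 4.08%, and 2100 had an unadjusted p under 0.05. Dusp5 was at 8.45, 9.60, 8.61 and 10.55 TPM with tirzepatide, overlapping with the controls, of which the lowest was 8.55 and the highest 10.44 TPM, and its log2 change was -0.04 with a 95% interval of -0.42 to 0.35. Dusp6 was at 61.56, 67.87, 65.59 and 64.10 TPM, each above the highest control at 61.4 TPM. Its fitted log2 change was 0.07, with an interval of -0.04 to 0.18 and the lowest adjusted p of the 9 members in edgeR at 0.526. On the CPM scale of the test the Dusp6 groups overlapped. Dusp2 likewise lay above the controls in TPM, at 12.2 ± 0.509 against 11.4 ± 0.271, and overlapped in CPM.

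Dusp3 also read differently on the 2 scales. Its ratio of group means was 0.11 in log2 TPM and 0.01 in log2 CPM for tirzepatide, and 0.17 and 0.01 for the combination, each against control. With the combination all 4 libraries were above the controls in TPM, at 70.03, 71.01, 77.35 and 74.56 against 59.90, 65.02, 66.89 and 68.67. In CPM these groups overlapped, and the fitted log2 change was 0.01 with a 95% interval of -0.08 to 0.10. What sets the scales apart was not tested.

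In the combination, Dusp5 was high in 3 libraries and low in 1. It was at 14.80, 7.63, 20.79 and 20.22 TPM in combination libraries 1 to 4. Libraries 1, 3 and 4 were above every control and every tirzepatide library, and library 2 was below all of them. Against control the log2 change was 0.75 ± 0.18 (SE), with a 95% interval of 0.38 to 1.11 (edgeR adjusted p = 0.0103). Against tirzepatide it was 0.78 ± 0.18, with an interval of 0.41 to 1.152 (edgeR adjusted p = 0.0214). Dusp5 was the 1 member of 9 that passed in each comparison, where 1012 genes, 8.94%, passed against control and 174, 1.54%, against tirzepatide. These 2 comparisons share the combination libraries, and the first shares its controls with those above.

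The size of the Dusp5 rise in the combination turned on library 2. Without it the log2 changes were 0.97 against control and 1.01 against tirzepatide (edgeR adjusted p = 1.51e-06 and 1.2e-06). Library 2 was set apart by its low response over genes that include Dusp5. Leaving it out is thus a choice made on the outcome, and these values are a description only. With library 2 kept, the call against control was lost without combination library 4, at 0.61 (edgeR adjusted p = 0.056), and in a fit of those 2 groups alone, at 0.75 (0.0504). The call against tirzepatide was lost in 8 of 24 alternatives, among them the fit of the 2 groups alone, at 0.78 (edgeR adjusted p = 0.0722), and limma on quantile-normalized values, at 0.69 (limma adjusted p = 0.0614). It was also lost on leaving out combination library 1, 3 or 4 or tirzepatide library 1, 2 or 3, with log2 changes from 0.64 to 0.81 and edgeR adjusted p-values from 0.0551 to 0.123.

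Dusp6 was at 54.02, 62.27, 54.65 and 52.46 TPM in the combination. Libraries 1, 3 and 4 were below every control and every tirzepatide library, and library 2 was above every control. The log2 change was -0.12 against control, with a 95% interval of -0.23 to -0.01 (edgeR adjusted p = 0.156). Against tirzepatide it was -0.19, with an interval of -0.30 to -0.08 (edgeR adjusted p = 0.0668). Neither passed in edgeR with all libraries and no block for the replicate number. DESeq2 called the change against tirzepatide, at -0.19 (DESeq2 adjusted p = 0.0338), and the edgeR fit with that block is given further below. Without library 2 both passed in edgeR, at -0.19 against control (edgeR adjusted p = 0.0179) and at -0.25 against tirzepatide (0.00267). Dusp6 was also among the genes that set library 2 apart, so these 2 values are a description only. The ratio of Dusp5 to Dusp6 was 0.274, 0.380 and 0.385 in libraries 1, 3 and 4, and 0.123 in library 2, below every control.

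The remaining members gave no call in the combination against control with all libraries in the fit. Dusp4 was at 54.40, 56.74, 70.10 and 69.46 TPM, against 51.94, 67.03, 75.59 and 77.99 in the controls. Dusp7 was at 15.61, 15.09, 19.06 and 15.52 TPM, against 13.61, 17.92, 19.08 and 22.80. In both genes control 1 was the lowest control, and it is also the library with the highest acinar sum. Without control 1 both were lower in the combination, with log2 changes of -0.22 for Dusp4 and -0.30 for Dusp7 (edgeR adjusted p = 0.0297 and 0.0249), and the same calls were made without controls 1 and 2. With all libraries the values were -0.13 and -0.19 (edgeR adjusted p = 0.359 and 0.236). The part of the acinar transcripts in this was not tested.

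The combination against oxLDL, with the interaction, asks whether tirzepatide altered the response to oxLDL. No member passed in either. For the combination against oxLDL edgeR called 0 of 9 members, as did DESeq2 and limma, where 4 of all genes passed, 0.0353%. There 4 members had an unadjusted p under 0.05 in edgeR, as did 1146 of the 11319 genes tested. By the fit to counts, Dusp3, Dusp4 and Dusp16 were lower in the combination, and Dusp6 was higher. For Dusp3 this held in CPM only, since its ratio of group means was 0.01 in log2 TPM and -0.10 in log2 CPM. The fitted log2 changes were negative in 8 of the 9, with a median of -0.16 against -0.004 for all genes.

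In Dusp16 the 4 combination libraries were all below the 4 oxLDL libraries in TPM and in CPM, at 13.37, 12.90, 13.42 and 12.84 TPM against 15.4, 14, 14.6 and 15.6. They were also all below the tirzepatide libraries, at 15.32, 14.78, 16.35 and 15.30 TPM. The log2 changes were small, -0.18 ± 0.07 (SE) against oxLDL and the same size against tirzepatide (edgeR adjusted p = 0.366 and 0.218). They kept their sign in all 24 alternatives and passed the test in none. The share of all genes with groups separated in this way is not given here. Against the controls, at 11.69 to 17.4 TPM, the groups overlapped. Dusp4 had a log2 change of -0.24 ± 0.08 against oxLDL (edgeR adjusted p = 0.358), and its lowest adjusted p over the alternatives was 0.0654. Its groups overlapped in TPM but not in CPM, where the highest combination library was at 94.24 and the lowest oxLDL library at 95.6.

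For Dusp5 the difference between the combination and oxLDL was -0.25, with a 95% interval of -0.60 to 0.09 (edgeR adjusted p = 0.625), and -0.02 without combination library 2. For Dusp6 it was 0.14, with an interval of 0.03 to 0.25 (edgeR adjusted p = 0.393), and 0.08 without that library. The interaction is the departure of the combination from the sum of the single log2 changes. It called 0 of 9 members in edgeR, DESeq2 and limma, and 8 of all genes in edgeR, 0.0707%. An unadjusted edgeR p under 0.05 was found in 1168 of the 11319 genes tested. Of the 9 members it was found in Dusp16 alone, with an interaction of -0.23 ± 0.10 (edgeR adjusted p = 0.407). Dusp5 had one of -0.21, with an interval of -0.73 to 0.30, an interval that holds both a lower and a higher response to oxLDL. Without combination library 2 the Dusp5 interaction was 0.02 (edgeR adjusted p = 0.975).

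Over 8 lists of related genes of the MAP kinase pathway, 83 genes were tested, and with oxLDL 5 were higher and 3 lower, 9.64% of the 83 beside 4.54% of all genes. With tirzepatide 2 were higher and 2 lower (4.82% beside 4.08%), and with the combination 4 and 5 (10.8% beside 8.94%), each against control. Without controls 1 and 2 the counts were 2 higher and 3 lower with oxLDL, 2 and 1 with tirzepatide and 2 and 7 with the combination. Over all genes the same 3 counts were then 307, 204 and 967, in place of 514, 462 and 1012. The combination against oxLDL gave 0 of 83 in edgeR and limma and 1 in DESeq2, with 9 at an unadjusted edgeR p under 0.05. Against tirzepatide it gave 1 higher and 2 lower, and without combination library 2 it gave 5 and 5, where the calls over all genes went from 174 to 444.

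Of 10 MAP kinases tested, which are what the phosphatases act on, edgeR called 0 with oxLDL, with 2 at an unadjusted p under 0.05, 1 call in DESeq2 and 0 in limma. With the combination against control edgeR called 0, with 3 at an unadjusted p under 0.05, 0 calls in DESeq2 and 1 in limma. The median log2 change of the 10 with oxLDL was -0.06. Mapk12, a p38 isoform, fell with tirzepatide, from 30.4 ± 1.62 to 25.8 ± 1.40 TPM (log2 change -0.27, edgeR adjusted p = 0.03). The change was -0.25 without controls 1 and 2 (edgeR adjusted p = 0.138). Upstream, 19 kinases that activate MAP kinases were tested, with a median log2 change of 0.02 with oxLDL. Of these edgeR called 1 higher and 0 lower, beside 4.54% of all genes tested. The 1 was Map2k3, which phosphorylates p38. It was at 61.3 to 74.3 TPM in the controls and at 83.4 to 88.2 TPM with oxLDL, without overlap (log2 change 0.30, edgeR adjusted p = 0.00142), and it passed in all 24 alternatives. In the combination it was at 75.28, 67.10, 85.25 and 83.90 TPM, with library 2 again the lowest. There it did not pass against control, at 0.16 (edgeR adjusted p = 0.0847), or against tirzepatide, at 0.19 (0.0904). Without library 2 both passed, at 0.22 and 0.25 (edgeR adjusted p = 0.00812 and 0.00334). Map2k3 was among the genes that set library 2 apart, so these last values are a description only.

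Of 20 early response genes, which MAP kinase signals induce within minutes, 2 were higher and 1 lower with oxLDL, with a median log2 change of -0.06. Of all genes tested 4.54% passed in that comparison. Fos, a subunit of the AP-1 transcription factor, was at 7.426, 7.364, 9.004 and 7.997 TPM in the controls and at 26.06, 27.72, 31.45 and 24.63 TPM with oxLDL. Its log2 change of 1.78 ± 0.24 (SE; edgeR adjusted p = 4.15e-05) was larger than that of Dusp5. In the combination Fos was at 24.80, 8.45, 33.86 and 33.72 TPM, so library 2 was in the reach of the controls here as well. Fosl1, another AP-1 subunit whose estimated counts were not whole and so held shared reads, rose by a log2 change of 0.29 with oxLDL (edgeR adjusted p = 0.00569), and by 0.23 without controls 1 and 2, where it did not pass (0.1). Against control Fosl1 was also higher with tirzepatide, at 0.24 (edgeR adjusted p = 0.0293), and with the combination, at 0.20 (0.0462). Without controls 1 and 2 neither of these passed (edgeR adjusted p = 0.224 and 0.252). Egr2, a zinc finger factor, fell at -0.43 (edgeR adjusted p = 0.0473), a call made in 14 of 24 alternatives. Without controls 1 and 2 it was -0.45 and did not pass (edgeR adjusted p = 0.128).

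Egr1, a relative of Egr2, was lowest in the combination. It was at 5.59, 6.26, 7.20 and 6.12 TPM there, each below the lowest control at 8.32 TPM and the lowest tirzepatide library at 7.43 TPM. The log2 change was -0.60 against control (edgeR adjusted p = 6.5e-05) and -0.39 against tirzepatide (0.0162). Here library 2 did not stand apart, and without it the change against control was -0.61. The call against tirzepatide was made in 19 of 24 alternatives, with adjusted p-values up to 0.0945. Against oxLDL the difference of -0.42 did not pass (edgeR adjusted p = 0.0847), and it passed in 5 of 24 alternatives. With the combination against control 2 of the 20 early response genes were higher and 2 lower, with a median log2 change of -0.16. Of all genes tested 8.94% passed there. Fos was among the higher ones, and the lower ones were Egr1 and Egr2. Egr2 was at -0.57 (edgeR adjusted p = 0.00571), a call made in all 24 alternatives. Without controls 1 and 2 the Egr2 change was -0.59 (edgeR adjusted p = 0.0198). Against tirzepatide Egr2 was at -0.45 and did not pass (edgeR adjusted p = 0.0698).

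Of 7 tested phosphatases of MAP kinases outside the family, 2 were called in each of the 3 comparisons with control, Ppm1d lower and Ptpn7 higher. These comparisons share the 4 controls, so their calls are not independent. Of all genes tested 4.54% passed with oxLDL, 4.08% with tirzepatide and 8.94% with the combination. Ppm1d, a serine and threonine phosphatase that acts on p38, fell from 45.2 ± 2.56 TPM in the controls to 36.0 ± 1.04 with oxLDL, 39.5 ± 2.75 with tirzepatide and 36.3 ± 1.23 with the combination. Ptpn7, a tyrosine phosphatase of ERK and p38 in blood cells, rose from 83.0 ± 7.44 TPM to 96.9 ± 3.12, 110.7 ± 8.73 and 99.1 ± 5.90 in the same order. All 6 of these changes passed, with edgeR adjusted p-values from 0.000276 to 0.0212. Without controls 1 and 2 the 3 that did not pass were Ppm1d with tirzepatide, at -0.20 in place of -0.23 (edgeR adjusted p = 0.129), and Ptpn7 with oxLDL, at 0.16 in place of 0.20 (0.168), and with the combination, at 0.18 in place of 0.22 (0.058). The median log2 change of the 7 tested genes of this list was 0.04 with each single agent.

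Among 9 other feedback inhibitors tested, whose median log2 change with oxLDL was -0.07, Zfp36l2 was higher and Zfp36l1 lower with oxLDL, at log2 changes of 0.27 and -0.17 (edgeR adjusted p = 0.00867 and 0.0323). Both are proteins that speed the decay of AU-rich messages. They were 2 of the 9, where 4.54% of all genes tested passed with oxLDL. The Zfp36l2 change was 0.24 without controls 1 and 2, a fit with fewer libraries, and did not pass (edgeR adjusted p = 0.0893). Spry4, which restrains signalling to ERK, was lower with the combination than in the controls, at -0.24 (edgeR adjusted p = 0.0251). Without combination library 2 it was -0.22 and did not pass (0.0585). Against control it was nearly as low with each single agent, at -0.21 with oxLDL and -0.20 with tirzepatide, and neither passed (edgeR adjusted p = 0.0763 and 0.0837). Of 9 kinases downstream of MAP kinases edgeR called 0 with oxLDL, with 0 at an unadjusted p under 0.05 and 0 calls in DESeq2 and limma. Among the nearest relatives of the 9 genes, Dusp8 was tested on at most 47 counts and was not called, and Dusp9 had under 10 counts in all 16 libraries and was not measured. In the combination Dusp8 had log2 changes of -0.71 against control, -0.70 against oxLDL and -0.51 against tirzepatide. The first 2 had an unadjusted edgeR p under 0.05, as 2646 and 1146 of the 11319 genes tested did. Of the 18 listed atypical dual-specificity phosphatases, 16 were in the table and 8 were tested, and edgeR called 0 in every comparison, with at most 2 at an unadjusted p under 0.05, 1 call in DESeq2, for the combination against control, and 0 in limma.

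The genes most like Dusp5 over the 16 libraries were Odc1, Crem and Hmox1. Likeness was the Pearson r of log2 CPM, searched over 9348 genes with a mean of at least 5 TPM, and it was 0.981, 0.978 and 0.970, a description without a test since the libraries share their groups. Odc1 makes putrescine, the first step of polyamine synthesis, Crem is a cyclic AMP responsive transcription factor, and Hmox1 breaks down heme under oxidative stress. Odc1 was at 2654 to 2978 TPM in the controls, 5158 to 5683 with oxLDL and 2771 to 3116 with tirzepatide. In the combination it was at 4769, 2685, 5541 and 5594 TPM, so that library 2 was at the level of the controls. Crem was at 27.44, 11.96, 29.89 and 31.50 TPM and Hmox1 at 667.8, 424.7, 739.9 and 721.8 TPM in the same 4 libraries. Within groups, on deviations from each group mean, r with Dusp5 was 0.952, 0.934 and 0.943, and without combination library 2 it was 0.747, 0.633 and 0.632.

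Dusp6 was most like Car2, a carbonic anhydrase, Ikbke, a kinase of the interferon response, and Abca1, the cholesterol exporter, with r of 0.957, 0.952 and 0.931. Car2 was at 1610 to 1685 TPM in the controls and 1229 to 1271 TPM with oxLDL, and Abca1 was at 151.5 to 169.9 and 105.0 to 115.9 TPM. All 3 passed as lower with oxLDL, at log2 changes of -0.41, -0.60 and -0.52 (edgeR adjusted p = 0.000614, 0.00536 and 1.3e-05). In combination library 2 Car2 was at 1742 TPM and Ikbke at 35.6 TPM, each above every control, as Dusp6 was. Abca1 was at 157.1 TPM there, within the reach of the controls. Within groups r with Dusp6 was 0.833, 0.824 and 0.651, and without that library 0.486, 0.455 and -0.446, so that of Abca1 changed sign.

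**Figure D5:**
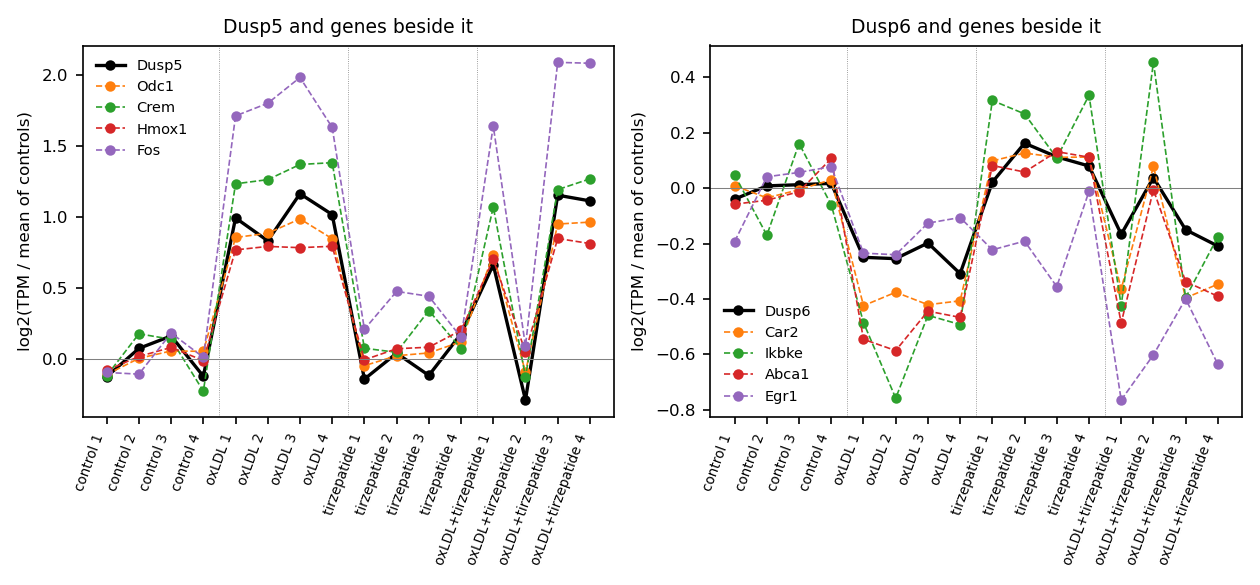
Level of Dusp5 (left, black) and Dusp6 (right, black) in each library as log2 of TPM over the control mean (vertical axis), with the genes most like each and 1 early response gene in colour, lines only joining a gene's points. In combination library 2 Dusp5 is below and Dusp6 slightly above the control mean, and Egr1 stays low in all 4 combination libraries.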

How the data were processed

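RNA from 16 RAW264.7 libraries was sequenced. For 21965 genes the authors deposited expected counts, estimates from RSEM that need not be whole (those of the 9 members were), and TPM, which they scaled for length and depth. The submitters' processing notes name Bowtie2 2.2.8, fastp 0.18.0, RSEM and StringTie 1.3.1 and the builds GRCm39 and mm39, and the annotation release is not given in the sources used here. RSEM splits reads shared by similar genes, and 6.8% of the deposited expected count values were not whole. No column belonged to other samples (0 columns).

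Rounding gave whole counts for edgeR 4.0.16 under R 4.3.3: filterByExpr (minimum count 10), TMM, glmQLFit and glmQLFTest with 1 mean per group, 12 residual degrees of freedom, and Benjamini-Hochberg adjustment per comparison over 11319 genes, called at 0.05. Every adjusted p comes from this fit unless another tool or an alternative is named. Each alternative had its own fit, with adjustment over the genes tested in it. The SE is the log2 change divided by the root of F, and intervals are 95%. Replicates of a group differed by more than counting error, with a chi-square per degree of freedom of 2.71 to 17.7 over 24 pairs, and the biological coefficient of variation was 0.0633.

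The members, the pathway and marker lists and the alternatives were chosen with earlier results of these data known, and the lists are described by counts only. The rule for names took all 9 members, up to 3 called genes per list and comparison by smallest p, and the 3 genes most like each called member. The fit was repeated with a block for the replicate number, with the compared groups alone, with RLE factors, without a filter, with genes of at least 5 TPM in 4 or more libraries, with each library left out and with controls 1 and 2 left out together. DESeq2 1.42.0, and limma 3.58.1 on quantile-normalized values, replaced edgeR in turn. Promoter windows came from RefSeq tables of GRCm38.p6, matched by symbol, for 8 of 9 members.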

Additional observations from a re-analysis of the deposited data

Results flagged for a closer look

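Values of each member in each group of 4 libraries were searched for a single library far from the rest, 36 groups in all, of which 2 were past the limit and 1.8 would be by chance. Dusp6 in control 1 was at 59.0 TPM, below the other 3 controls by 0.836 of the whole range of the group. The group is narrow, at 59.0 to 61.4 TPM, and the fall of Dusp6 with oxLDL was called without control 1 as well. Dusp7 in combination library 3 was at 19.06 TPM, above the other 3 combination libraries by 0.869 of the range.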

How the results depend on the processing

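The 24 alternatives (23 for the interaction, which needs all groups) left the calls of Dusp5 and Dusp6 with oxLDL against control in place, with adjusted p-values from 9.17e-08 to 0.0122 and from 0.000283 to 0.0445. With tirzepatide against control, the combination against oxLDL and the interaction, 0 members were called in any of them. For the combination against control 1 member was called, and 0 with only the groups compared in the fit, 3 without controls 1 and 2, and 0 to 3 on leaving out 1 library. For the combination against tirzepatide 1 was called, and 0 with only the groups compared, 0 with limma on quantile-normalized values, 2 with DESeq2, 2 with the replicate block, and 0 to 2 on leaving out 1 library. Fewer libraries enter some of these fits, and otherwise the cause was not tested.

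With the replicate block Dusp6 was lower in the combination than with tirzepatide, at -0.19 (edgeR adjusted p = 0.0169). The block raised the calls over all genes from 514 to 734 for oxLDL and from 462 to 750 for tirzepatide, each against control. Between deviations of libraries of the same number r ran from -0.127 to 0.189 over 24 pairs, with a median of 0.0176 and 5 over 0.1. For other numbers it ran from -0.208 to 0.145 over 72 pairs, with a median of -0.00148 and 7 over 0.1. Of 16 libraries 6 were most like their own number. Pairing was to be taken up only where every pair was over 0.1 or the labels gave a shared source, and neither held, so the fit without the block was kept. The Dusp5 change with tirzepatide against control had the other sign with quantile normalization, at 0.00498, and ran from -0.10 to 0.00906 on leaving out 1 library. The Dusp5 interaction ran from -0.36 to 0.0188 on leaving out 1 library, with the other sign without combination library 2. The other 34 pairs of a member and a comparison were not called in any alternative, 18 of them changed sign, and their lowest adjusted p was 0.06.

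Counts over all genes moved with the fit: 307 to 734 for oxLDL, 119 to 750 for tirzepatide and 410 to 1450 for the combination, each against control, 2 to 32 for the combination against oxLDL, 58 to 444 against tirzepatide, and 1 to 58 for the interaction. Over the 83 pathway genes they were 5 to 12, 1 to 5, 5 to 16, 0 to 1, 1 to 10 and 0 to 1 in that order. Dusp10, at 17 to 44 counts, set the widest intervals.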
